A study of Mus musculus with 8 samples.

Results

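Transcripts of NF-κB subunits, of 2 feedback inhibitors of NF-κB and of 2 of its cytokine targets were examined in EMS404 cells, a mouse line that stands for the myofibroblastic state of hepatic stellate cells. The genes were listed by name, namely the subunit genes Nfkb1, Nfkb2, Rel, Rela and Relb, the feedback inhibitors Nfkbia and Tnfaip3, and the cytokines Il6 and Il1a. Of the 9 listed genes, 8 were measured, among 22180 genes with a probe set of a single symbol, each by 1 probe set, and Nfkb1 was not analysed here. The arrays compared 4 siBNC2 and 4 siCTRL samples. siBNC2 samples were EMS404 cells transfected by lipofection with 20 nM of an siRNA against Bnc2, which encodes a zinc finger protein, and collected after 48 h. siCTRL samples received 20 nM of a non-targeting siRNA for the same time, and all cells grew in DMEM with fetal calf serum, with no cytokine or other agent named. All samples come from a single cell line. The study describes its cell line arrays as independent replicates, while the labels name no separate cultures, and p-values measure the spread between these 8 arrays. The titles number the samples 1 to 4 in each group. Both arrays numbered 4 stood apart from those numbered 1 to 3, and the NF-κB genes were therefore also compared between these numbers, with siBNC2 or siCTRL as a term of the fit.

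NF-κB dimers are held in the cytoplasm by IκB proteins in resting cells. Stimuli such as TNF, interleukin-1 or Toll-like receptor ligands activate IKK kinases, IκB is degraded and the dimers enter the nucleus, where they switch on cytokines and chemokines together with their own inhibitors. Activated hepatic stellate cells are known to use this pathway when they secrete chemokines and to resist cell death through it.

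Values are log2 signals per gene, and a difference of 1 is a factor of 2. Levels were not ranked between single genes, since each probe set has its own response, and percentiles among all genes serve only to mark dim probe sets. Array medians lay between 6.45 and 6.50, and arrays correlated with each other over all genes with r between 0.9829 and 0.9957. Bnc2, the targeted gene, read 7.07, 6.78, 6.72 and 8.18 on the siBNC2 arrays numbered 1, 2, 3 and 4, against 8.26, 8.41, 8.37 and 9.03 on the siCTRL arrays. The groups did not overlap, and Bnc2 was 2.51-fold lower in siBNC2 cells (log2 difference -1.33 ± 0.31, SE; exact two-sided permutation p = 0.0286, the smallest that 70 arrangements allow), with a limma adjusted p of 1.0. Within each group its highest value was on the array numbered 4. Of 13 stellate cell and myofibroblast markers, 12 lay at or above the 40th percentile of all genes (log2 5.66), the exception being Lrat. Of 11 measured macrophage and leukocyte markers, 8 lay below that percentile, among them the defining genes Ptprc, Adgre1 and Csf1r. Cd68, Cd14 and Clec4f lay above it. Also below it were 5 of 8 hepatocyte, 5 of 7 endothelial and 3 of 5 cholangiocyte markers, among them Alb, Cdh5 and Krt19. Markers of these types above it included Cyp3a11, Kdr, Sox9 and Epcam.

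The stretch just upstream of the start site is shown for the genes in which it holds a match to the kappa B consensus, a description of NF-κB sites. Il6, Tnfaip3 and Nfkbia read lower on both arrays numbered 4 than on the other arrays, while the values of the subunit genes Nfkb2 and Rel overlapped. All were shown for holding a match, so a match does not tell them apart. Relb, which also read lower, had no window. Each sequence gives the 130 bases before the RefSeq start (build GRCm38.p6), 5′ to 3′ on the strand of the gene, with matches to the kappa B consensus in capitals. The consensus was taken as 3 guanines, a purine, 2 bases of any kind, 2 pyrimidines and 2 cytosines, read on both strands, and overlapping matches were merged. The stretch of Il6 lies at chr5:30012984-30013113 (+), Tnfaip3 at chr10:19015411-19015540 (-), Nfkbia at chr12:55492648-55492777 (-), Nfkb2 at chr19:46304607-46304736 (+) and Rel at chr11:23770970-23771099 (-).
Il6: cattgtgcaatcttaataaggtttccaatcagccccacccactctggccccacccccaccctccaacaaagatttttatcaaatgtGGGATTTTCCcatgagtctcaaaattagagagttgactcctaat
Tnfaip3: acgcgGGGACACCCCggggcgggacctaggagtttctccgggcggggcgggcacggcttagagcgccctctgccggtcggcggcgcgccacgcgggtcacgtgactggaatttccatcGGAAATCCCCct
Nfkbia: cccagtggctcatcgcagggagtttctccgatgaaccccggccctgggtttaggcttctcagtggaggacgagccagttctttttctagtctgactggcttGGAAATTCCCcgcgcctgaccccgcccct
Nfkb2: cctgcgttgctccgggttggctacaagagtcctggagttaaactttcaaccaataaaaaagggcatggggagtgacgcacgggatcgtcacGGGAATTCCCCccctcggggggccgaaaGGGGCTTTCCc
Rel: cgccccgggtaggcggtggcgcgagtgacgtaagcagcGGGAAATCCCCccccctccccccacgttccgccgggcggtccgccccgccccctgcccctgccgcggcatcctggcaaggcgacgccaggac

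Counted back from the start, whose upstream neighbour is -1, the match began at -44 in Il6, at -29 in Nfkbia and at -92 in Rel. Tnfaip3 held matches beginning at -125 and -12, and Nfkb2 held matches beginning at -39 and -11. Tnfaip3 and Nfkb2 have further RefSeq starts, whose sequences are not shown. RefSeq windows of 300 bases, from 250 before to 50 after the start, were matched to 7 of the 9 listed genes, all but Nfkb1 and Relb. A match was present in 5 of these 7, while the windows of Rela and Il1a held none. Over all windows, 8.46% held a match (2779 of 32851), and 2581 of 27025 genes had one in at least 1 window (9.55%). Of the other induced NF-κB targets described further on, 9 of 22 with a window held a match. So did 5 of 13 IκB family and IKK genes, 4 of 12 inhibitors and 6 of 26 receptors and adaptors. Matches were also held by 4 of 15 interferon-stimulated genes, 2 of 9 stellate cell markers and 1 of 5 endothelial markers. The IL-6 and IL-1 systems had 2 of 17, and macrophage, hepatocyte and cholangiocyte markers had none. A match was thus not particular to the induced targets. A match describes these letters and is not evidence of binding.

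No NF-κB gene differed between siBNC2 and siCTRL cells at a limma adjusted p under 0.05, a threshold that Bnc2, the targeted gene, did not pass either. Nfkb2, Rela and Il1a averaged 1.30-fold, 1.24-fold and 1.24-fold higher in siBNC2 cells with unadjusted p near the threshold, while Rel, Relb, Nfkbia, Tnfaip3 and Il6 had an unadjusted p above it. Over all 22180 genes, 0 passed the adjusted threshold (0.0%), and 708 had an unadjusted p under 0.05 (3.19%), 412 higher and 296 lower. Of the 8 measured NF-κB genes, 3 had an unadjusted p under 0.05, all with a higher mean in siBNC2 cells. This count was between 0 and 3 under the alternatives, being 0 with median centring, without dim genes, and without siBNC2 replicate 2, siBNC2 replicate 3 or siCTRL replicate 3. The median difference of the 8 genes was 0.23, with 6 higher and 2 lower means, against a median of 0.01 over all genes. Without both arrays numbered 4, 0 genes were called and 824 had an unadjusted p under 0.05, and the differences of Nfkb2, Rela, Il1a, Tnfaip3 and Il6 were 0.48 ± 0.17, 0.43 ± 0.15, 0.35 ± 0.16, 0.26 ± 0.26 and -0.28 ± 0.50 (SE).

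Among the subunits, Nfkb2, which encodes the precursor of the non-canonical pathway, read 11.80, 11.67, 12.06 and 11.32 on siBNC2 arrays 1 to 4, against 11.54, 11.38, 11.17 and 11.24 on siCTRL arrays. The groups overlapped only through the siBNC2 array numbered 4, which lay below the siCTRL arrays numbered 1 and 2. The means were 11.71 ± 0.31 in siBNC2 cells and 11.33 ± 0.17 in siCTRL cells (SD, n = 4 each), a difference of 0.38 ± 0.17 (SE, 95% interval 0.01 to 0.75, exact permutation p = 0.0857). Rela, which encodes the main transactivating subunit, read 15.78, 15.70, 15.78 and 15.62 on siBNC2 arrays, against 15.47, 15.39, 15.11 and 15.69 on siCTRL arrays. Here the overlap came from the siCTRL array numbered 4, which lay among the siBNC2 values. Rela averaged 15.72 ± 0.08 in siBNC2 cells and 15.41 ± 0.24 in siCTRL cells (SD), and differed by 0.31 ± 0.14 (SE, 95% interval 0.00 to 0.61, exact permutation p = 0.0571).

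Rel, which encodes the c-Rel subunit known best from lymphocytes, read 12.18, 11.70, 11.62 and 11.97 on siBNC2 arrays, against 11.92, 11.81, 11.63 and 11.82 on siCTRL arrays. Its values interleaved, and the difference was 0.07 ± 0.15 (95% interval -0.26 to 0.40, exact permutation p = 0.657). Relb, the partner of the non-canonical subunit and itself a target of NF-κB, read 9.06, 9.09, 9.21 and 8.87 on siBNC2 arrays, against 9.16, 9.29, 9.18 and 8.68 on siCTRL arrays. The lowest value of each group was on its array numbered 4, and the difference of -0.02 ± 0.15 had an interval of -0.36 to 0.32 (exact permutation p = 0.886).

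Among the feedback inhibitors, Nfkbia, which encodes IκBα, read 11.85, 12.03, 12.05 and 11.41 on siBNC2 arrays, against 11.89, 11.86, 11.66 and 11.33 on siCTRL arrays. Its difference was 0.15 ± 0.18 (95% interval -0.25 to 0.56, exact permutation p = 0.486), and the groups overlapped. Tnfaip3, which encodes the ubiquitin-editing enzyme that shuts off signalling to IKK, read 8.01, 8.96, 8.30 and 7.66 on siBNC2 arrays, against 7.83, 8.42, 8.24 and 6.72 on siCTRL arrays. The values overlapped between the groups, and the array numbered 4 was the lowest of each. The difference of 0.43 ± 0.38 had an interval of -0.42 to 1.28 (exact permutation p = 0.457), which reaches past a 2-fold difference. It was 0.07 without siCTRL replicate 4 and 0.19 without siBNC2 replicate 2. On each number the siBNC2 value lay above the siCTRL value, which was also the case for Nfkb2 and Il1a. With the replicate number as a block the difference of Tnfaip3 was 0.43 ± 0.16 (SE, limma unadjusted p = 0.0302, adjusted p = 0.868).

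Of the cytokine genes, Il6 read 9.11, 8.39, 9.80 and 7.38 on siBNC2 arrays, against 10.49, 8.43, 9.23 and 7.32 on siCTRL arrays. Both groups spanned more than 2 log2 units and overlapped nearly throughout. The means were 8.67 ± 1.04 in siBNC2 cells and 8.87 ± 1.34 in siCTRL cells (SD), and the difference of -0.20 ± 0.67 had an interval of -1.69 to 1.29 (exact permutation p = 0.80). Il1a, which encodes a cytokine released from damaged cells, read 4.18, 4.64, 4.47 and 4.23 on siBNC2 arrays, against 4.00, 4.18, 4.06 and 4.06 on siCTRL arrays. It was the only NF-κB gene whose groups did not overlap, although its lowest siBNC2 and highest siCTRL value both round to 4.18. Groups did not overlap for 2.16% of all genes. Its difference was 0.31 ± 0.13 (95% interval 0.01 to 0.60, exact permutation p = 0.0286, the smallest allowed). All its values lay below the 40th percentile of all genes, in the range of dim probe sets.

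**Figure D1:**
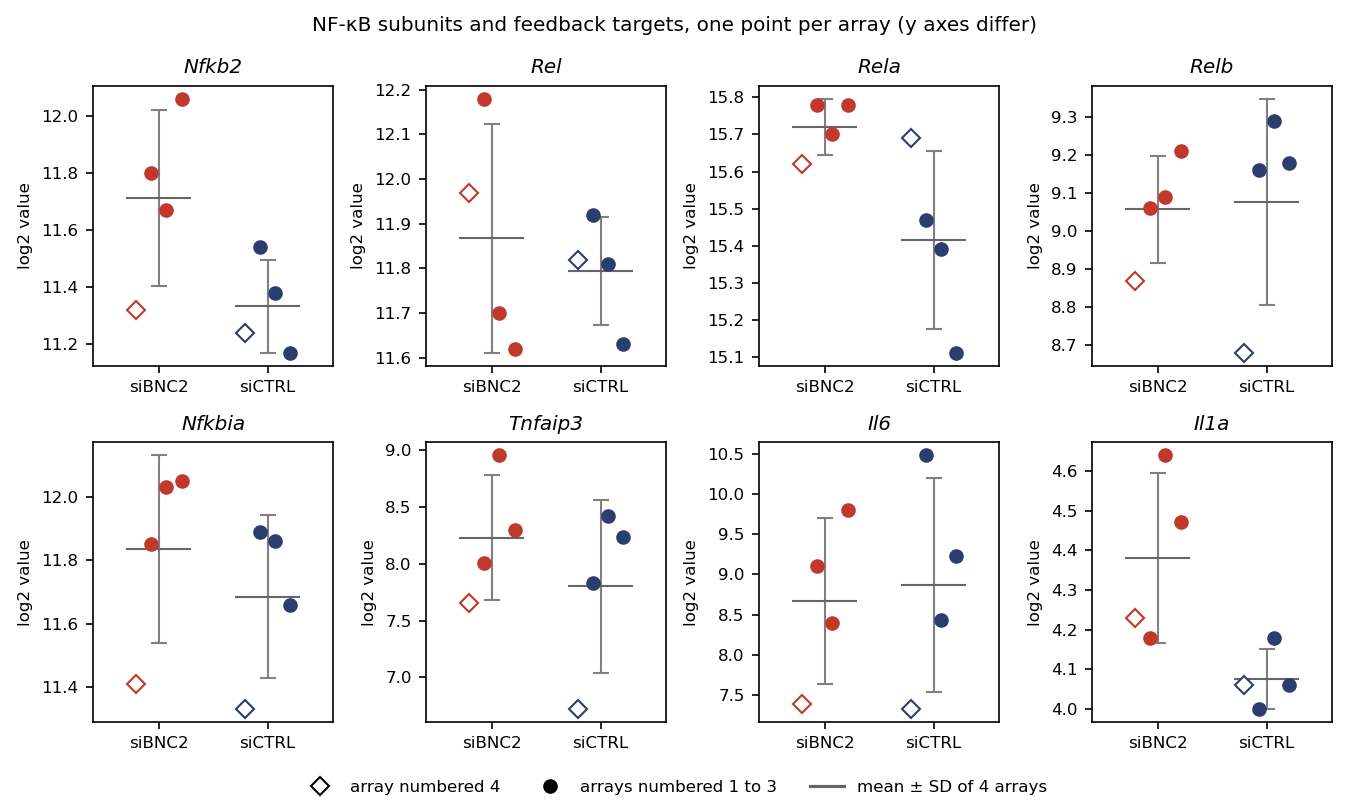
Log2 values of the 8 measured NF-κB genes on each array, siBNC2 (red) beside siCTRL (blue), with open diamonds for the arrays numbered 4, filled circles for those numbered 1 to 3, and lines with bars for the mean ± SD of 4 arrays. Il6, Tnfaip3, Nfkbia and Relb have their lowest value on the array numbered 4 in both groups, while siBNC2 and siCTRL values overlap in 7 of 8 genes.

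Of the 8 NF-κB genes, 4, namely Il6, Tnfaip3, Nfkbia and Relb, read lower on both arrays numbered 4 than on all 6 others, by 3.72-fold, 2.15-fold, 1.43-fold and 1.31-fold. None passed the adjusted threshold in the fit over all genes, where 752 genes did (3.39%), 391 higher and 361 lower. At an unadjusted p under 0.05, 3704 genes differed (16.7%), of which 1532 were lower (6.91%), and the same 4 of 8 NF-κB genes were among the lower ones. Groups that did not overlap in either direction were found for 17.9% of all genes, and for 7.87% with the arrays numbered 4 lower. The median difference of the 8 NF-κB genes was -0.36, with 6 lower and 2 higher means, against 0.01 over all genes. The number of genes called rested on these 2 arrays: it was 71 without siBNC2 replicate 4 and 44 without siCTRL replicate 4, and 1160 without siCTRL replicate 3. The contrast was chosen with these values known and its tests describe these arrays.

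Il6 read 7.38 and 7.32 on the siBNC2 and siCTRL arrays numbered 4, against 8.39 to 10.49 on the 6 arrays numbered 1 to 3. The difference was -1.89 ± 0.48 (SE, 95% interval -2.96 to -0.83, limma adjusted p = 0.0623), and was -1.73 among siBNC2 arrays and -2.06 among siCTRL arrays. Tnfaip3 read 7.66 and 6.72 on the arrays numbered 4, against 7.83 to 8.96 on the others. Its difference of -1.10 ± 0.27 (95% interval -1.70 to -0.51, limma adjusted p = 0.0544) was -0.76 among siBNC2 arrays and -1.45 among siCTRL arrays, so that the siBNC2 array numbered 4 lay only just below the lowest of the others. Both genes were near the threshold and crossed it under some settings. With the dim genes left out of the fit, the limma adjusted p was 0.0384 for Il6 and 0.0339 for Tnfaip3, and with array weights it was 0.0362 for Il6, 0.0231 for Tnfaip3 and 0.0263 for Nfkbia.

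Nfkbia read 11.41 and 11.33 on the siBNC2 and siCTRL arrays numbered 4, against 11.66 to 12.05 on the others, with differences of -0.57 and -0.47 within the groups. In the common fit it differed by -0.52 ± 0.14 (95% interval -0.82 to -0.22, limma adjusted p = 0.0706). Relb read 8.87 and 8.68 on the arrays numbered 4, against a narrow range of 9.06 to 9.29 on the others, and differed by -0.39 ± 0.13 (95% interval -0.69 to -0.09, limma adjusted p = 0.160). For each of these 4 genes the exact permutation p was 0.0357, the smallest that 28 arrangements allow, since 2 arrays were set against 6. The 4 genes were grouped for that separation, so this p adds no support to it. The arrangements also treat the arrays as independent, while the 2 arrays numbered 4 deviated together (r = 0.6668).

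The other subunit genes and Il1a did not separate. Nfkb2 read 11.32 and 11.24 on the arrays numbered 4, against 11.17 to 12.06 on the others, a difference of -0.32 ± 0.17 (95% interval -0.70 to 0.05, limma adjusted p = 0.391) that was -0.52 among siBNC2 arrays and -0.12 among siCTRL arrays. Rel differed by 0.08 ± 0.17 (95% interval -0.30 to 0.47, adjusted p = 0.890) and Il1a by -0.11 ± 0.15 (95% interval -0.45 to 0.23, adjusted p = 0.809). Rela differed by 0.12 ± 0.16 (95% interval -0.24 to 0.47, adjusted p = 0.807), with -0.13 among siBNC2 arrays and 0.36 among siCTRL arrays.

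**Figure D2:**
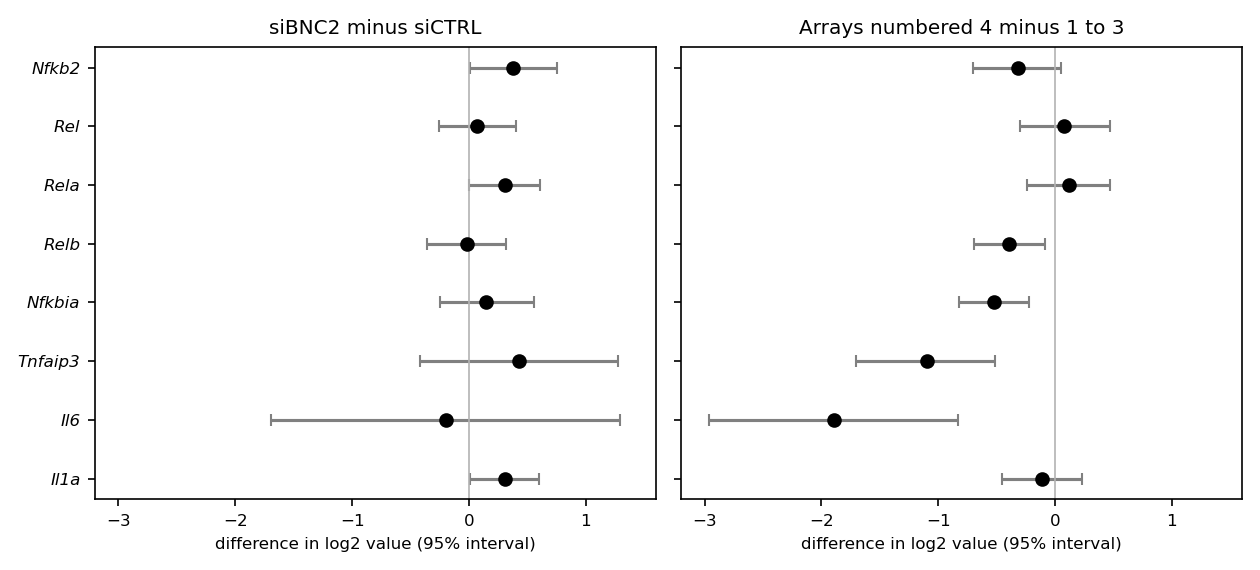
Difference in log2 value (points) with its 95% interval from limma (bars) for each NF-κB gene, siBNC2 minus siCTRL at left and arrays numbered 4 minus those numbered 1 to 3 at right, on the same axis. At right the intervals of Relb, Nfkbia, Tnfaip3 and Il6 lie below 0, while at left Tnfaip3 and Il6 have the widest intervals and both span 0.

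The NF-κB genes differed widely in how much they varied between arrays of a group. The pooled SD within groups was 1.20 for Il6 and 0.67 for Tnfaip3, which placed them at the 99.5th and 97.8th percentile of all genes. For the other genes it lay between 0.16 for Il1a and 0.28 for Nfkbia, at percentiles 22.6 to 65.3. When only arrays numbered 1 to 3 were used, the SD of Il6 was still 0.89, at the 99.6th percentile, and that of Tnfaip3 0.41, at the 90.6th percentile. That of Nfkbia was 0.12, at percentile 14.2, and that of Relb 0.08, at percentile 3.6.

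Within the numbers 1 to 3, Il6 and Tnfaip3 did not follow each other. The arrays numbered 2 had the lowest Il6 of the 3, at 8.39 in siBNC2 cells and 8.43 in siCTRL cells, and the highest Tnfaip3, at 8.96 in siBNC2 cells and 8.42 in siCTRL cells. Tnfaip3 had the same order of numbers in both groups, from 2 as the highest through 3 and 1 to 4 as the lowest. Il6 shared only its lower ranks, 2 above 4, between the groups. The arrays numbered 3 had the highest Nfkb2 of the siBNC2 group, at 12.06, and the lowest of the siCTRL group, at 11.17.

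The genes most like Il6 over the 8 arrays were Mycn, a transcription factor of the Myc family, Psmb9, a subunit of the immunoproteasome, and Fjx1, with Pearson r of 0.986, 0.980 and 0.978 (Spearman rho 0.952, 0.929 and 0.952). Over the 6 arrays numbered 1 to 3, r was 0.967, 0.974 and 0.953. Psmb9 read 5.92 and 6.42 on the siBNC2 and siCTRL arrays numbered 4, against 8.33, 7.08 and 8.61 on the other siBNC2 arrays and 9.37, 7.01 and 8.19 on the other siCTRL arrays, so that the arrays numbered 2 were again the lowest of the others. The genes most like Tnfaip3 were Srrt, Gpr176 and Ctdp1, a phosphatase of RNA polymerase II, with r of 0.988, 0.983 and 0.980 (rho 0.976, 0.929 and 1.0). Over the 6 arrays numbered 1 to 3, r was 0.979, 0.942 and 0.947. These are the highest values among all genes at or above the 40th percentile, picked for being highest over 8 points that share their number and their normalization, and carry no test.

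Other genes of the pathway were counted from 5 lists of 104 measured genes out of 113 listed, which hold none of the NF-κB genes above. Between siBNC2 and siCTRL cells none passed the adjusted threshold, and at an unadjusted p under 0.05 there were 2 lower and 0 higher, against 3.19% of all genes, with a median difference of -0.02. The 2 were Tnip2, a partner of the Tnfaip3 enzyme, and Traf6, the ubiquitin ligase downstream of interleukin-1 and Toll-like receptors. Tnip2 read 7.03, 7.01, 6.86 and 7.01 on siBNC2 arrays, against 7.74, 7.35, 7.32 and 7.33 on siCTRL arrays. Its groups did not overlap, as for 2.16% of all genes, and it differed by -0.46 ± 0.13 (SE, limma adjusted p = 1.0). Traf6 differed by -0.39 ± 0.16.

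On the arrays numbered 4, 3 of the 104 pathway genes were called higher and 11 lower, with a median difference of -0.12. Of 29 measured genes on the list of other induced NF-κB targets, 7 fell and 1 rose, against 3.39% of all genes called in either direction. That share includes dim genes. With these left out of the fit, 1082 of 13308 genes were called, and 21 of the 29 targets lay at or above the limit for dim genes. Ccl2 and Ccl7, chemokines that attract monocytes, had the smallest p. Ccl2 read 12.16 and 11.98 on the siBNC2 and siCTRL arrays numbered 4, against 15.31, 14.59 and 15.67 on the other siBNC2 arrays and 15.90, 14.60 and 15.11 on the other siCTRL arrays. It fell by 3.13 ± 0.34 on the log2 scale (limma adjusted p = 0.00154), and Ccl7 fell by 3.66 ± 0.48 (adjusted p = 0.00393). The arrays numbered 2 held the lowest Ccl2 and Ccl7 among the numbers 1 to 3 in both groups, as they did for Il6.

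The other targets that fell were Mmp13, Ier3, Irf1, Gadd45b and Csf1, and Tgm2 rose by 1.14 (limma adjusted p = 0.0396), all named after their values were seen. Mmp13, a collagenase, fell by 2.32 (adjusted p = 0.0138), Ier3, an early response gene, fell by 1.57 (adjusted p = 0.00769), Irf1, a transcription factor that interferon also induces, fell by 1.35 (adjusted p = 0.0174), Gadd45b fell by 0.94 (adjusted p = 0.0315) and Csf1, the macrophage growth factor, fell by 0.72 (adjusted p = 0.0162). Other targets, also named after their values were seen, had small differences, such as -0.27 ± 0.19 for Vcam1 and 0.23 ± 0.29 for the neutrophil chemokine Cxcl1. The adhesion molecule Icam1 differed by 0.00 ± 0.14, but at percentile 40.2 it lay near the limit for dim probe sets. Ptgs2 and Mmp3 were lower on both arrays numbered 4 than on all others. They differed by -0.95 ± 0.24 and -0.74 ± 0.18, short of the threshold (limma adjusted p = 0.0623 and 0.0533). The list as a whole had 21 lower and 8 higher means and a median of -0.17, and 8 of its 29 genes, among them Tnf and Il1b, lay below the 40th percentile of all genes.

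**Figure D3:**
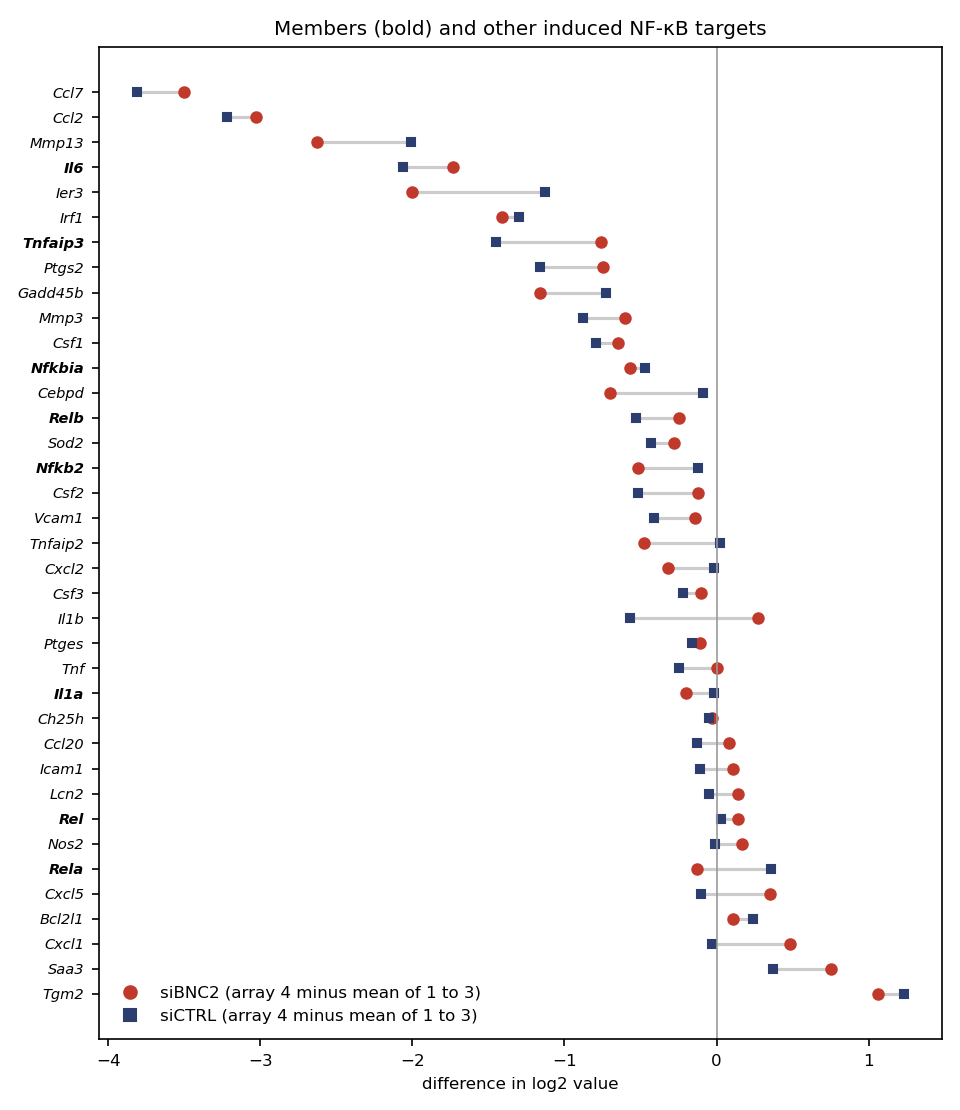
Difference in log2 value between the array numbered 4 and the mean of arrays numbered 1 to 3, within siBNC2 (red circles) and within siCTRL (blue squares), for the 8 NF-κB genes (bold) and 29 other induced targets, ordered by the common fit. Ccl7 and Ccl2 lie farthest to the left in both groups and Tgm2 farthest to the right. Icam1, near the limit for dim probe sets, lies near 0.

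Upstream of NF-κB, 2 of 26 measured receptors and adaptors fell on the arrays numbered 4 and 0 rose. With 3.39% of all genes called, 1 or 2 calls in a list of this size are not set apart from the background, here and in the lists that follow. Tlr3, the receptor for double-stranded RNA, read 9.95 and 10.10 on the siBNC2 and siCTRL arrays numbered 4, against 14.07, 12.40 and 13.45 on the other siBNC2 arrays and 14.33, 11.76 and 13.57 on the other siCTRL arrays. It fell by 3.24 ± 0.59 (limma adjusted p = 0.0164). Tnfrsf12a, the receptor for the TNF family ligand TWEAK, fell by 1.23 ± 0.28 (adjusted p = 0.0438).

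Of the IκB family and IKK kinases, 1 of 16 was called, Tab1, a partner of the kinase that activates IKK, which rose by 0.88 ± 0.16 (limma adjusted p = 0.0164). Of 16 ubiquitin-editing and other inhibitors, only Rnf31 passed, which fell by 1.77 ± 0.29 (adjusted p = 0.0102). Rnf31 encodes a ubiquitin ligase of the linear chain assembly complex, which promotes signalling in spite of the name of the list. Zfp36, of the same list, differed by -2.08 ± 0.53 and fell short of the threshold (adjusted p = 0.063). Of 17 genes of the IL-6 and IL-1 systems, 1 rose and 1 fell. Il33, an interleukin-1 family cytokine, read 10.77 and 11.21 on the siBNC2 and siCTRL arrays numbered 4, against 8.38 to 9.59 on the others, and rose by 1.93 ± 0.28 (adjusted p = 0.00675). Lif, a cytokine that shares its signalling receptor chain with interleukin-6, fell by 1.56 ± 0.28 (adjusted p = 0.0164).

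Genes of 4 further lists were called between the array numbers. Of 18 measured interferon-stimulated genes, 17 fell on the arrays numbered 4, the exception being Ifit3, with a median difference of -3.70, and Oasl1 and Ifit1 fell by 5.02 ± 0.29 and 4.74 ± 0.34 (limma adjusted p = 0.000242 and 0.000348). The mean deviation of the list from its average was -2.68 and -3.02 on the siBNC2 and siCTRL arrays numbered 4, against 0.58 to 1.17 on the other siBNC2 arrays and -0.10 to 1.58 on the other siCTRL arrays. That of the 8 NF-κB genes was -0.29 and -0.49 on the siBNC2 and siCTRL arrays numbered 4, against 0.15 to 0.32 on the other siBNC2 arrays and -0.06 to 0.19 on the other siCTRL arrays. The macrophage and leukocyte list had a median difference of -0.10, and its mean level lay between 5.55 and 5.83 in siBNC2 cells and between 5.50 and 5.73 in siCTRL cells. Its gene Cd68, which other cells also express, fell by 1.22 ± 0.21 (adjusted p = 0.0146), while Ptprc, Adgre1 and Csf1r stayed below the 40th percentile. Of its other genes above that percentile, Cd14 differed by -0.47 ± 0.19 (adjusted p = 0.253) and Clec4f by 0.07 ± 0.20. Of the 13 stellate cell and myofibroblast markers, 3 were called lower and 1 higher. Acta2, Tagln and Timp1 differed by -1.82, -1.98 and -1.03, and Pdgfra by 1.31. The marker list as a whole leaned the other way, with 8 higher and 5 lower means and a median difference of 0.23. At a limma unadjusted p under 0.05, 6 of its genes were higher and 3 lower. Of the cholangiocyte markers, Sox9 fell by 0.69 (limma adjusted p = 0.0327), although its values overlapped between the numbers. Epcam, of the same list, differed by 0.37 ± 0.16 (limma adjusted p = 0.276). The list had 3 higher and 2 lower means and a median difference of 0.07. In bulk RNA, fewer cells of a type and less RNA per cell cannot be told apart. The part of these lists, or of a difference in culture or hybridisation between the numbers, in the values of Il6, Tnfaip3, Nfkbia and Relb was not tested.

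**Figure D4:**
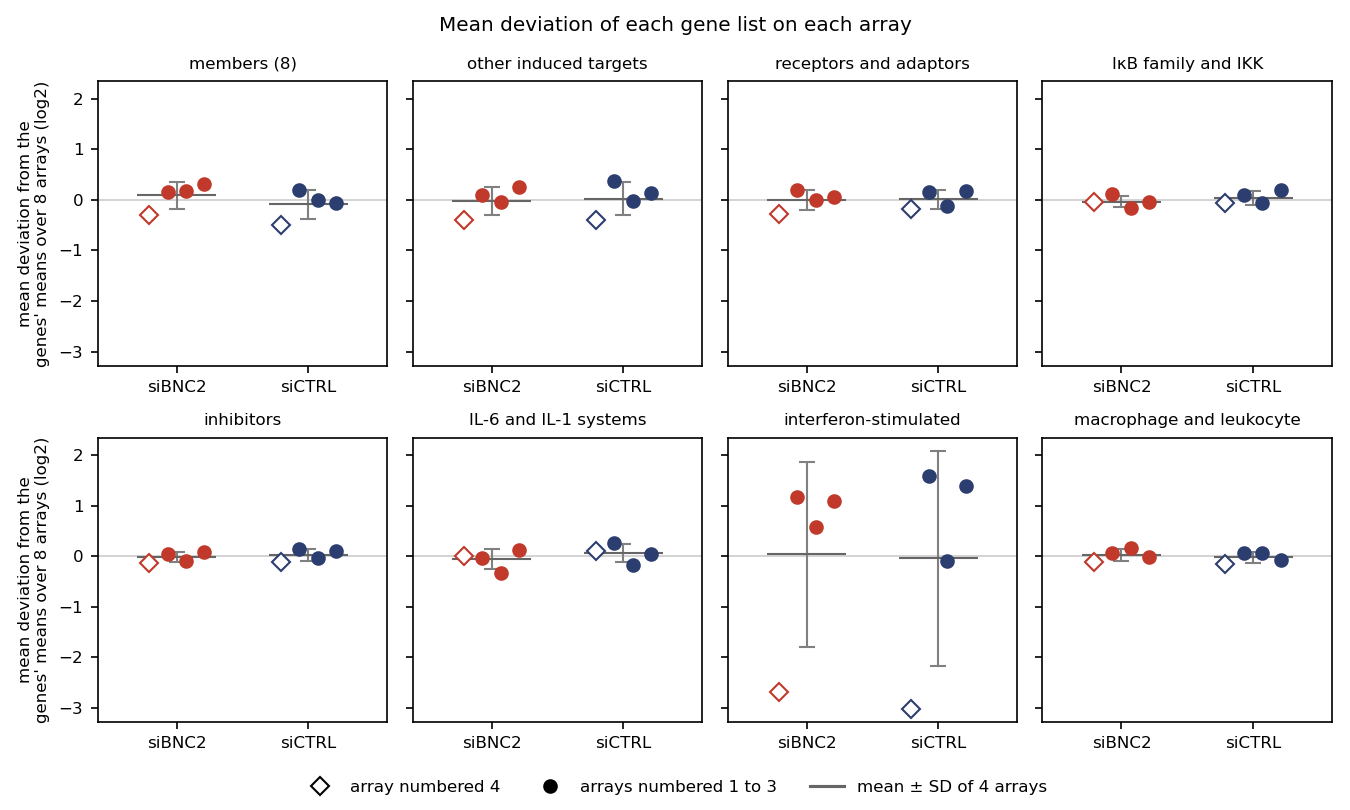
Mean deviation of each gene list from its genes' means over the 8 arrays (log2), siBNC2 (red) beside siCTRL (blue), with open diamonds for the arrays numbered 4, filled circles for those numbered 1 to 3, and lines with bars for the mean ± SD of 4 arrays. The interferon-stimulated list lies at -2.68 and -3.02 on the arrays numbered 4, while the 8 NF-κB genes lie at -0.29 and -0.49.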

How the data were processed

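RNA of 8 EMS404 samples (4 siBNC2, 4 siCTRL) was hybridised to Affymetrix MoGene arrays, 1 colour and 1 array per sample. Per the study's methods, the authors ran Affymetrix Power Tools in the GIANT suite (GC correction, intensity scaling, then RMA on core genes) and deposited log2 values per probe set. The log base follows from RMA and is not written beside the values. RMA includes quantile normalization, which would remove a shift shared by most genes. The genome build of the arrays' annotation is not given in the sources used here, and promoter coordinates are those of RefSeq on GRCm38.p6.

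The table held 41345 probe sets and 0 unused columns. The platform annotation, which can be old, paired 23521 probe sets with 1 symbol, 1820 with several and 16004 with none. Those with 1 symbol were averaged by gene (22180 genes). No arrays were identical. Tests used limma 3.58.1 in R 4.3.3 (lmFit, eBayes) and were two-sided. P-values were adjusted by Benjamini-Hochberg across every gene, and calls were made under 0.05. siBNC2 was compared with siCTRL with no other term, and numbers 4 with numbers 1 to 3 with the group as a term. The 2 comparisons use the same 8 arrays. Single genes were also tested by exact permutation over the 8 arrays. The number of arrays limits the precision. ± gives an SD for a group and an SE for a difference.

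The members, lists and the contrast of numbers were chosen with earlier results of these data known. Named are the members, Bnc2, the 2 genes with the smallest p per list and contrast where they add to the account, and the 3 genes with the highest r for members that span 1 log2 unit. Genes named outside this rule are marked or are cell type markers. Alternatives were quantile normalization again, median centring, a filter on dim genes, the brightest probe set, a trended robust prior, array weights, each array left out, the replicate number as a block, both arrays numbered 4 left out, no group term, and each group alone. Scripts were tested on simulated data.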

Additional observations from a re-analysis of the deposited data

Results flagged for a closer look

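Rela was picked out because the array numbered 4 moved in opposite directions in the 2 groups. It differed from the mean of numbers 1 to 3 by -0.13 in siBNC2 cells and by 0.36 in siCTRL cells. The siBNC2 array numbered 4, at 15.62, lay below the other siBNC2 arrays (15.70 to 15.78), and the siCTRL array numbered 4, at 15.69, lay above the other siCTRL arrays (15.11 to 15.47). The difference between the groups was not tested.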

How the results depend on the processing

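Between siBNC2 and siCTRL cells, 0 genes and 0 NF-κB genes passed the adjusted limma threshold under every alternative run, with 312 to 1207 genes at an unadjusted p under 0.05. The highest count came from the fit with the replicate number as a block. Same-numbered arrays deviated together with r of 0.3899, 0.4151 and 0.6668 for numbers 1, 2 and 4, against -0.001 for number 3. siBNC2 array 3 did not correlate best with its own number. The main fit did not take the numbers as pairs. The study states that compared groups were handled together in each round of an in vitro experiment, but the labels do not tie the numbers to rounds. The replicate block gave 0 called genes, and 3 NF-κB genes at an unadjusted p under 0.05, namely Nfkb2, Tnfaip3 and Il1a in place of Nfkb2, Rela and Il1a. Tnfaip3 was then 0.43 ± 0.16 (SE, limma adjusted p = 0.868) and Rela 0.31 ± 0.14 (adjusted p = 0.918). Il6 was -0.20 ± 0.28 with the block, against an SE of 0.67 without it. Tnfaip3 ranged from 0.07 to 0.64 and Nfkbia from 0.03 to 0.29 with 1 array left out, both lowest without siCTRL replicate 4. Small differences changed sign. Relb was 0.0116 after quantile normalization, and with 1 array left out it ranged from -0.1519 to 0.0504, being above 0 without siBNC2 replicate 4 (0.0437) or siCTRL replicates 1, 2 or 3 (0.0069, 0.0504 and 0.0148). Rel ranged from -0.0354, without siBNC2 replicate 1, to 0.1507. Il6 ranged from -0.7158 to 0.3413, being above 0 without siBNC2 replicate 4 (0.2317) or siCTRL replicate 1 (0.3413).

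For numbers 4 against 1 to 3, the 752 called genes became 1584 with array weights, 119 with siBNC2 arrays alone and 0 with siCTRL arrays alone (limma, 1793 at an unadjusted p under 0.05), and 44 to 1160 when 1 array was left out (44 on leaving out siCTRL replicate 4, 71 on leaving out siBNC2 replicate 4 and 1160 on leaving out siCTRL replicate 3). Of the NF-κB genes, 0 were called in the fit as reported, 2 without dim genes (Il6 and Tnfaip3), 3 with array weights (these and Nfkbia), 1 with no group term (Il6) and 0 to 1 with 1 array left out. Over all genes, 1082 of 13308 were called without dim genes. Fits that use 1 group, or lack an array numbered 4, set a single array against the rest and assume that it varies like the others. Rela ranged from -0.1297, without siCTRL replicate 4, to 0.3635, and was -0.1297 with siBNC2 arrays alone. The other 7 NF-κB genes kept their direction in this contrast under the alternatives that gave a value. The causes were not tested.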
